A study of Mus musculus with 8 samples.

Results

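Interferon regulatory factors are transcription factors that share an N-terminal DNA-binding domain and bind the interferon-stimulated response element, a repeat built on the letters GAAA. The 8 genes described here, Irf1, Irf2, Irf3, Irf4, Irf5, Irf7, Irf8 and Irf9, were taken by symbol from the 24421 rows of the table of normalized counts, and all 8 were measured in every library. The cells were a mouse macrophage line (RAW, given as RAW 267.4 in the sample labels), and RNA was sequenced from 8 libraries in 4 groups of 2. In the statin LPS group, cells treated with a statin at 7 µM together with lipoprotein-deficient serum were then given lipopolysaccharide (LPS, 100 ng/ml) for 3 h in albumin medium. The ctl LPS group received the same LPS without the statin. The statin group received the statin and the lipoprotein-deficient serum without LPS, and the Ctrl group received neither the statin nor LPS. A statin blocks cholesterol synthesis at HMG-CoA reductase, and LPS activates Toll-like receptor 4. The methods of the study name lovastatin given with mevalonate, and the serum of the cells that got no statin is not given in the sources used here. Statin and serum therefore cannot be told apart, nor can LPS and the change to albumin medium. All libraries come from 1 cell line, and nothing says that the 2 libraries of a group came from separate cultures, so p-values measure the spread between these libraries, which may be technical.

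In macrophages the members of this family work at different steps of the response to LPS. Irf3 is present before stimulation and is switched on by phosphorylation through TRIF and the kinase TBK1, after which it drives interferon beta. Interferon beta then signals through JAK kinases to ISGF3, a complex that binds DNA through Irf9, and ISGF3 raises Irf7, the factor that amplifies type I interferon. Irf1 is an activator induced by NF-κB and by interferon, and Irf2 binds the same sites and mostly opposes it. Irf5 works downstream of MyD88 in the induction of inflammatory cytokines, Irf4 competes with Irf5 for MyD88 and is linked to alternative activation, and Irf8 is a factor of the myeloid lineage that pairs with PU.1.

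Reads over genes were between 37001178 and 76423673 per library. All 10 macrophage markers had reads in every library, so the label of the cells held. Some libraries stood apart. The 3 complement genes typical of tissue macrophages (C1qa, C1qb and C1qc) summed to 273 and 365 normalized counts in the statin LPS libraries, to 1634 in ctl LPS replicate 1 but 1.252 in replicate 2, and to at most 5.88 at rest. The 6 fibroblast markers showed the same pattern, with sums of 315 and 402 in statin LPS, 805 and 1.252 in ctl LPS and at most 1.56 at rest. The 5 B cell markers summed to at most 20.03 in any library. For the complement and fibroblast markers, no factor followed this pattern: within ctl LPS, the 2 libraries differed by at most 1.07 times for each of the 8. Other marker lists moved with the groups. The 5 plasmacytoid dendritic cell markers summed to 10760 and 10620 normalized counts in statin LPS, 47070 and 46200 in ctl LPS, 7889 and 8619 in statin, and 7526 and 7952 in Ctrl. The 6 conventional dendritic cell markers summed to 6058 and 6451 in statin LPS, 2487 and 2461 in ctl LPS, 5931 and 4228 in statin, and 277 and 591 in Ctrl. The 5 T cell markers summed to 420 and 400 in statin LPS, 1542 and 1644 in ctl LPS, 289 and 235 in statin, and 201 and 150 in Ctrl. Siglech, Flt3 and Cd3e, each picked from its list, were at most 2.34, 1.33 and 0.895 in any library. Other genes of the lists therefore carried these sums and moved with the groups. The part of these lists in the results was not tested. Statin replicate 2 held 678600 normalized counts of Rn45s, the ribosomal RNA precursor, against at most 72000 in the others. In that library 6 of the 8 factors were higher than in statin replicate 1, by up to 1.72 times (Irf7), and resting results are given without it where it changes a call. Over genes with a mean of at least 50, the log2 ratio within a pair of libraries had a robust SD of 0.0820 in statin LPS, 0.0687 in ctl LPS, 0.156 in statin and 0.224 in Ctrl, and the libraries without LPS thus agreed less closely.

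Promoter sequence is shown for the 3 factors whose windows held a recognition motif of the family's own pathway. RefSeq gave 11 promoters for the 8 genes (GRCm38.p6, 250 bases before and 50 bases after the start). Searched on both strands were the interferon-stimulated response element (GAAA and GAAA, 2 bases apart), the STAT element GAS (TTCNNNGAA), a kappaB element (GGGA and TTCC, 2 bases apart), the ETS-IRF element (GGAA and GAAA, 2 bases apart) and a sterol element (TCACNCCAC). Each window below is 100 bases on the plus strand, read 5′ to 3′ up to 51 bases before the start for Irf1, 151 for Irf2 and 101 for Irf8, with the matches in capitals. The windows lie at chr11:53769864-53769963, chr8:46739495-46739594 and chr8:120736158-120736257.
Irf1: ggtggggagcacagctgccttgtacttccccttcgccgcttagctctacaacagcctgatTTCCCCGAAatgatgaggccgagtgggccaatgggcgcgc
Irf2: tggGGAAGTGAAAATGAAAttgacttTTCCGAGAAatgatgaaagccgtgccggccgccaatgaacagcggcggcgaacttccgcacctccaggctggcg
Irf8: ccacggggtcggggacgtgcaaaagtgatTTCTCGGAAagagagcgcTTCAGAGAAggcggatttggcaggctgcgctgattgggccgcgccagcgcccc
Irf1 held 1 GAS match, at base -90 from the start, and Irf8 held 2, at -171 and -153. Irf2 held an ETS-IRF element at -247 that overlaps a response element at -241, followed by a GAS match at -224. No window of the other 5 factors held a match, and the kappaB and sterol letters searched were not matched in any of the 11. Only this form of the kappaB element was searched, so kappaB sites with other letters are not covered. Among all 32851 promoters of the same length, 3.44% held the response element, 8.30% GAS, 1.47% kappaB, 2.72% the ETS-IRF element and 1.24% the sterol element. A match here is a description of letters, not a bound site.

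**Figure D1:**
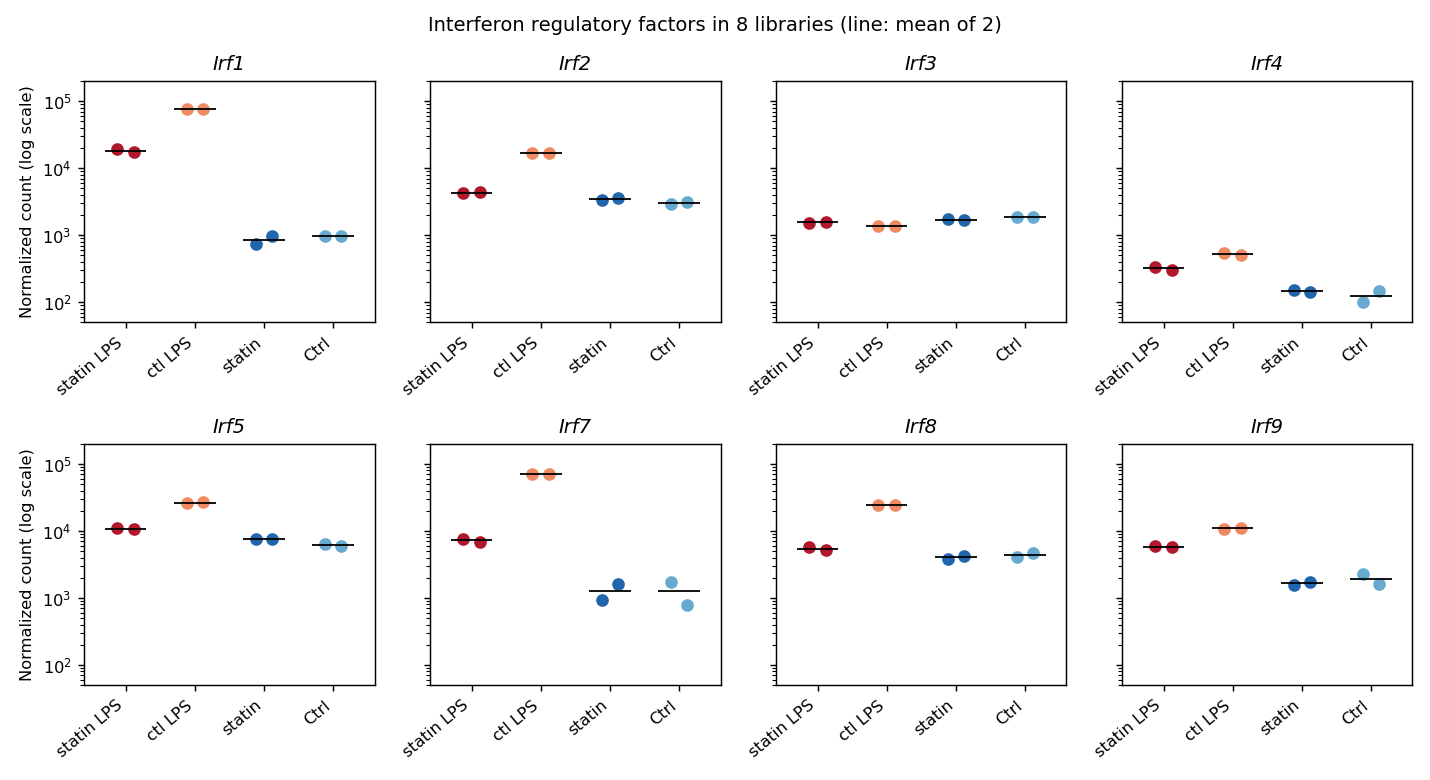
Normalized counts (log axis) of the 8 interferon regulatory factors in statin LPS, ctl LPS, statin and Ctrl, with 1 point per library and a line at the mean of 2. The ctl LPS points are the highest of every panel except Irf3, where they are the lowest, at 1391 and 1378.

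The first comparison asked what the statin did to the family in LPS-stimulated macrophages. All 8 factors differed between statin LPS and ctl LPS. Of these, 7 fell and 1, Irf3, rose slightly. Over all 11647 genes tested, 32.9% were called lower and 31.4% higher, so calls in both directions were common in this comparison. The median log2 fold change was -1.63 over the 8 factors, against -0.014 over all genes tested. Calls rest on limma on log2(normalized count + 1), with Benjamini-Hochberg adjusted p under 0.05 over all genes tested. The spread of each gene is estimated once over all groups. Intervals and p-values under LPS therefore carry the spread of the resting pairs, and those at rest carry the closer agreement of the LPS pairs. Fold changes are on that log2 scale. In these bulk libraries, fewer cells that express a factor and less of its RNA per cell cannot be told apart.

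Irf7, the amplifier of type I interferon, fell most. It had 7472 and 6940 normalized counts in statin LPS, against 71430 and 71821 in ctl LPS. This is 10.1% of the ctl LPS level (log2 fold change -3.31 ± 0.35 SE, 95% interval -4.12 to -2.51, adjusted p 6.53e-05), and Irf7 ranked 151 from the lowest of the 11647 genes tested.

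Irf8 followed, with 5775 and 5129 normalized counts in statin LPS, against 24189 and 24668 in ctl LPS, and a log2 difference of -2.17 ± 0.09 (SE, adjusted p 3.41e-07). Irf1 had 19106 and 17333 in statin LPS, against 76931 and 76910 in ctl LPS, with -2.08 ± 0.12 (SE, adjusted p 1.83e-06). Irf2, its antagonist, had 4207 and 4461 in statin LPS, against 17021 and 17113 in ctl LPS, with -1.98 ± 0.064 (SE, adjusted p 1.43e-07). These 3 factors stood at 22.3%, 23.7% and 25.4% of their ctl LPS levels.

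The factor of MyD88 signalling, Irf5, had 10881 and 10729 normalized counts in statin LPS, against 25759 and 26741 in ctl LPS. Its level was 41.2% of that in ctl LPS (log2 fold change -1.28 ± 0.06 SE, adjusted p 6.75e-07). The DNA-binding part of ISGF3, Irf9, had 5900 and 5724 in statin LPS, against 10723 and 11075 in ctl LPS, or 53.3% (-0.91 ± 0.13 SE, adjusted p 4.29e-04). Both groups were far apart for these 2 genes, and the decrease was smaller than that of Irf7, Irf8, Irf1 and Irf2 by the values given.

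Irf4, the least abundant member, had 336 and 304 normalized counts in statin LPS, against 536 and 502 in ctl LPS, or 61.7% (log2 fold change -0.70 ± 0.18 SE, adjusted p 0.00801). That call was lost without ctl LPS replicate 1 (-0.65, adjusted p 0.0527), without statin LPS replicate 2 (-0.63, adjusted p 0.0587), and with libraries scaled to equal totals (-0.36, adjusted p 0.101). Irf3, the constitutive factor, had 1546 and 1592 in statin LPS, against 1391 and 1378 in ctl LPS, or 113% (0.18 ± 0.06 SE, adjusted p 0.0287). Its call did not hold when any of the 4 LPS libraries was left out: the fold change stayed between 0.16 and 0.20, with adjusted p of 0.114 and 0.138 without ctl LPS replicates 1 and 2, and 0.0812 and 0.152 without statin LPS replicates 1 and 2. Scaling moved it further, to 0.52 with equal totals (adjusted p 9.02e-05) and 0.13 with quantile normalization (adjusted p 0.101), and over the 19 settings it stayed above 0. The other 6 factors were called lower in each of the 19 alternative settings run. Without the 2 libraries that stand apart in other genes (ctl LPS replicate 1 and statin replicate 2), 6 factors were called lower and 0 higher.

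**Figure D2:**
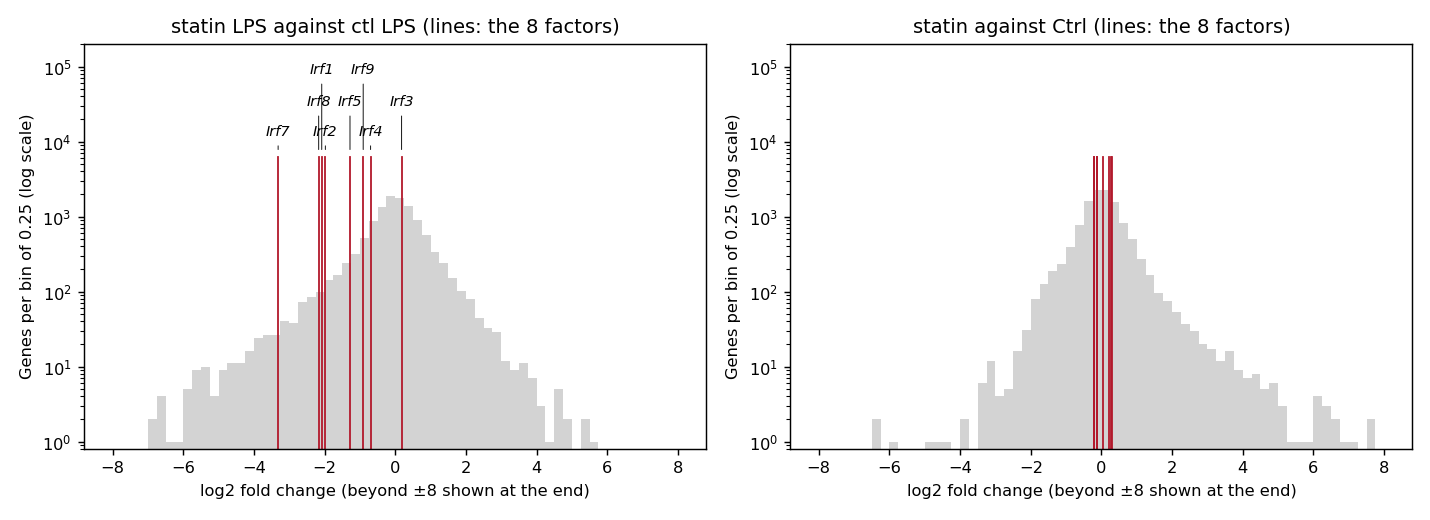
Number of genes (log axis) by log2 fold change for statin LPS against ctl LPS (left) and statin against Ctrl (right), with red lines at the 8 factors. On the left Irf7 lies at -3.31 and Irf8, Irf1 and Irf2 between -2.17 and -1.98, and on the right all 8 lie between -0.22 and 0.29.

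The second comparison was of the statin in resting macrophages. Here the estimates of all 8 factors lay between -0.22 and 0.29 on the log2 scale, with wide intervals for some. Of 8 factors, 2 rose (Irf5 and Irf2), 0 fell and 6 did not pass the test. Over all genes tested, 30.4% were called higher and 25.7% lower, so the 2 called higher were a share near that of all genes. With libraries scaled to equal totals, 1 factor was called higher and 3 lower. The median log2 fold change was -0.034 over the factors and 0.012 over all genes.

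Irf5 had 7457 and 7693 normalized counts in statin, against 6393 and 5970 in Ctrl, with a log2 difference of 0.29 ± 0.06 (SE, adjusted p 0.00358), and it was called in all 19 alternative settings. Irf2 had 3336 and 3640 in statin, against 2976 and 3084 in Ctrl (0.20 ± 0.06 SE, adjusted p 0.0260). The Irf2 call stood in 9 of 19 settings only. Among single libraries, it was lost without Ctrl replicate 1 (0.18, adjusted p 0.0588), statin replicate 2 (0.14, adjusted p 0.113), ctl LPS replicate 1 (0.20, adjusted p 0.0551) and ctl LPS replicate 2 (0.20, adjusted p 0.0554), and with equal totals it was 0.086 (adjusted p 0.284).

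For the 6 factors that did not pass the test, the intervals bound the difference. Irf1 had 731 and 969 normalized counts in statin, against 963 and 978 in Ctrl (95% interval of the log2 fold change -0.48 to 0.065). Irf8 had 3781 and 4254 in statin, against 4124 and 4614 in Ctrl (-0.32 to 0.081). The libraries of Irf1 and of Irf8 overlapped between the groups. Irf3 had 1751 and 1672 in statin, against 1872 and 1874 in Ctrl (-0.27 to 0.0084), without overlap. Irf4 had 151 and 141 in statin, against 99.9 and 145 in Ctrl (-0.13 to 0.68), and 1 Ctrl library lay between the 2 of statin. Some of these tests passed when 1 library was left out: Irf1 without statin replicate 2 (-0.41, adjusted p 0.00444), Irf4 without Ctrl replicate 2 (0.54, adjusted p 0.00825) and Irf9 without Ctrl replicate 2 (-0.45, adjusted p 0.00167). Scaling also moved some of them. With equal totals Irf1 (-0.32, adjusted p 0.0418), Irf3 (-0.25, adjusted p 0.00909) and Irf8 (-0.24, adjusted p 0.0436) were called lower. Irf3 was also called lower with quantile normalization (-0.18, adjusted p 0.0337) and with edgeR (-0.16, adjusted p 0.0422).

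Irf7 was the factor whose resting level was least certain. It had 929 and 1602 normalized counts in statin, against 1760 and 786 in Ctrl, so both statin libraries lay within the range of the Ctrl pair. The log2 fold change was 0.053 ± 0.35 (SE, 95% interval -0.75 to 0.86, adjusted p 0.911), and leaving out single libraries moved it between -0.53 and 0.63. Irf9 had 1545 and 1748 in statin, against 2248 and 1638 in Ctrl (95% interval -0.53 to 0.081). In statin, replicate 2 was 1.72 times replicate 1 for Irf7 and 1.13 times for Irf9, whereas in Ctrl, replicate 1 was 2.24 and 1.37 times replicate 2.

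The same tilt appeared in the targets of these factors. Of 30 genes on a list of IRF and ISGF3 targets, 5 were higher in statin replicate 1 than in statin replicate 2 (median log2 ratio -0.28), and 27 were higher in Ctrl replicate 1 than in Ctrl replicate 2 (median 0.43). In the LPS libraries the tilt was smaller: 26 of 30 were higher in statin LPS replicate 1 (median 0.11) and 12 of 30 in ctl LPS replicate 1 (median -0.0059). Whether this tilt has a part in the resting comparison was not tested.

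**Figure D3:**
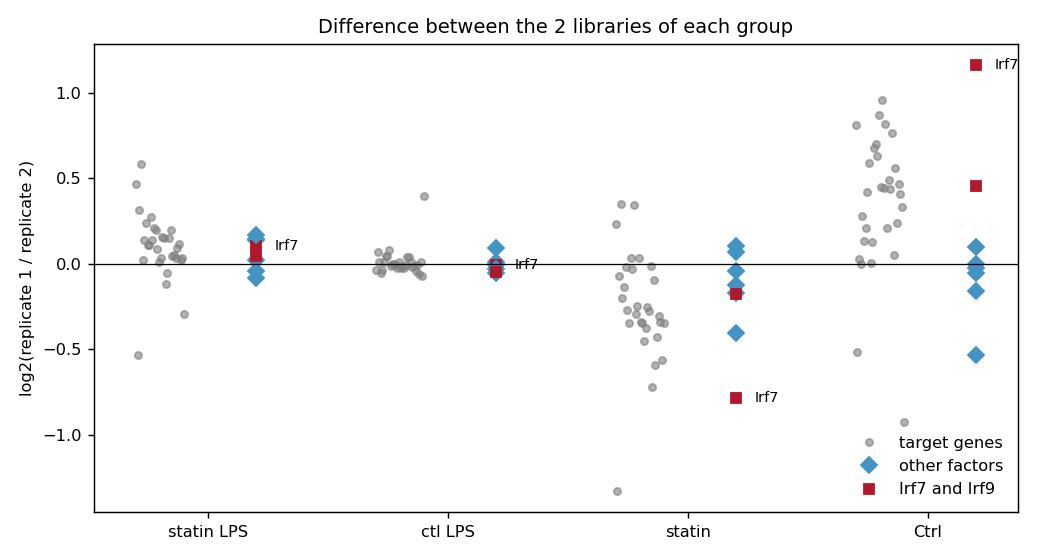
Log2 ratio of replicate 1 to replicate 2 within statin LPS, ctl LPS, statin and Ctrl, for 30 target genes (grey), Irf7 and Irf9 (red squares) and the other 6 factors (blue). Irf7 sits at 0.11, -0.0079, -0.78 and 1.16 in these groups, and the target genes lean the same way as Irf7 in statin and in Ctrl.

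LPS itself was then compared with no LPS, first in cells without the statin. Here 7 factors rose and Irf3 fell, where 39.9% of all genes tested were called higher and 37.6% lower. Irf1 had 76931 and 76910 normalized counts in ctl LPS, against 963 and 978 in Ctrl, a 79.2-fold rise (log2 6.31 ± 0.12 SE, adjusted p 1.35e-09). Irf7 averaged 71626 ± 276 in ctl LPS and 1273 ± 689 in Ctrl (SD, n = 2 each), a 60.8-fold rise (95% interval 34.8 to 106-fold). The width of that interval carries the spread of both the Ctrl and the statin pairs, as the fit pools all groups. Irf9, Irf2, Irf8, Irf4 and Irf5 rose by 5.68, 5.63, 5.60, 4.28 and 4.25-fold. Irf3 stood at 73.9% of the Ctrl level in ctl LPS (log2 -0.44 ± 0.06 SE, adjusted p 1.80e-04). All 8 calls held in each of the 19 settings, although the size of each shift depends on scaling: with libraries at equal totals the median of all genes was -0.79 in this comparison, against 0.024 with the deposited scaling.

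In statin-treated cells the rise with LPS was smaller for most of the family. Again 7 factors rose, 0 fell, and Irf3 did not pass the test (log2 fold change -0.13, adjusted p 0.107), where 29.2% of all genes tested were called higher and 29.0% lower. Irf1 averaged 18220 ± 1254 normalized counts in statin LPS and 850 ± 169 in statin (SD, n = 2 each), a 21.6-fold rise (adjusted p 4.82e-08). Irf7 rose 5.90-fold (adjusted p 4.06e-04), Irf9 3.54-fold (adjusted p 1.12e-05) and Irf4 2.18-fold (adjusted p 8.33e-04). The remaining increases were small: Irf5 1.43-fold (adjusted p 1.67e-04), Irf8 1.36-fold (adjusted p 0.00302) and Irf2 1.24-fold (adjusted p 0.00328). Those of Irf2 and Irf8 depended on scaling. With equal totals the log2 fold change of Irf2 was -0.047 (adjusted p 0.529) and that of Irf8 0.079 (adjusted p 0.432), and with quantile normalization they were 0.16 (adjusted p 0.105) and 0.26 (adjusted p 0.0655). Irf3 was called lower with equal totals (-0.49, adjusted p 1.67e-04).

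**Figure D4:**
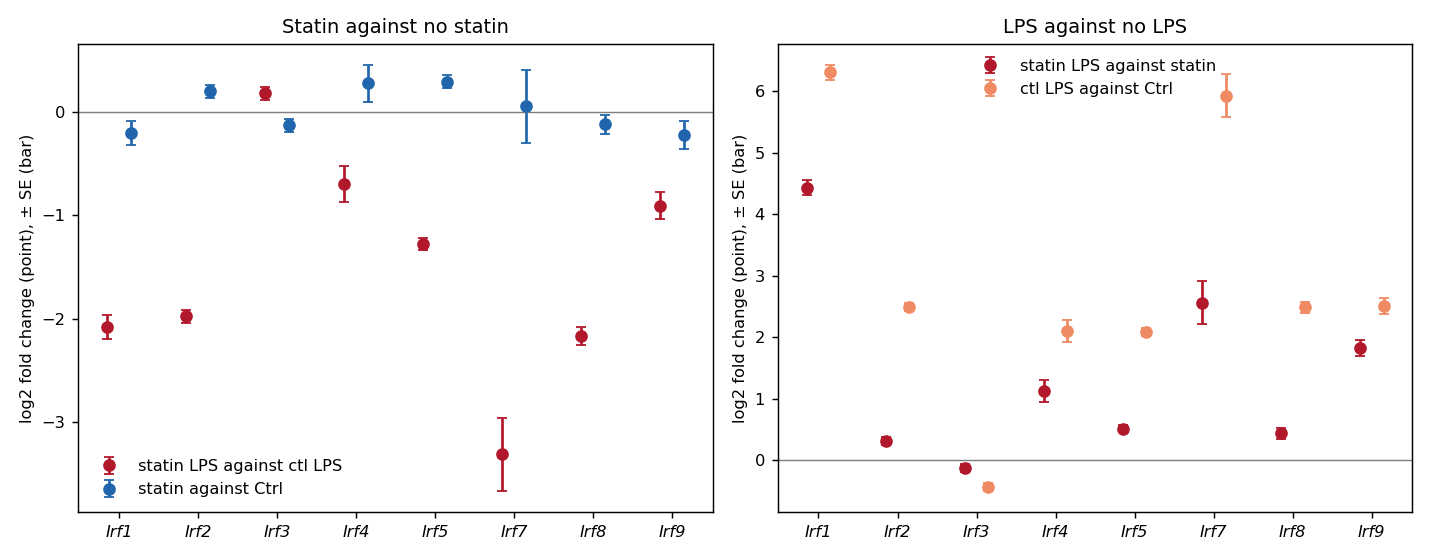
Log2 fold change ± SE of each factor, for statin LPS against ctl LPS and statin against Ctrl (left), and for statin LPS against statin and ctl LPS against Ctrl (right). The left panel shows 7 factors between -0.70 and -3.31 under LPS but between -0.22 and 0.29 at rest, and the right panel shows Irf2, Irf5 and Irf8 at 0.31, 0.51 and 0.44 with the statin.

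The statin effect under LPS was set directly against that at rest by the interaction term (statin LPS minus ctl LPS, less statin minus Ctrl). All 8 factors passed this test, 7 with a lower and 1 (Irf3) with a higher value, where 25.5% of all genes tested were called higher and 30.1% lower. The largest was Irf7 at -3.37 ± 0.50 (SE, adjusted p 5.84e-04), which moved between -3.95 and -2.79 when single libraries were left out. Irf2, Irf8, Irf1 and Irf5 lay at -2.18, -2.04, -1.87 and -1.57, each called in all 18 settings. Irf4 (-0.97, adjusted p 0.0102) was lost with equal totals (-0.52, adjusted p 0.0963) and without the 2 libraries named above (-0.98, adjusted p 0.0871). Irf9 (-0.68, adjusted p 0.0141) was lost without statin replicate 2 (-0.59, adjusted p 0.0578) and without statin LPS replicate 2 (-0.66, adjusted p 0.0532), and also with equal totals (-0.22, adjusted p 0.309), quantile normalization (-0.27, adjusted p 0.277) and the 2 libraries left out (-0.62, adjusted p 0.117). Irf3 (0.31, adjusted p 0.0143) was lost without ctl LPS replicate 1 (0.32, adjusted p 0.0552), ctl LPS replicate 2 (0.30, adjusted p 0.0635) or statin LPS replicate 2 (0.29, adjusted p 0.0653), and without the 2 libraries together (0.28, adjusted p 0.114). The 4 contrasts and the interaction share libraries, so they are not separate lines of evidence.

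Levels can be compared between the factors only per length, so normalized counts were divided by the exonic length of each gene in GENCODE (GRCm38). These lengths ran from 2905 bases for Irf5 to 7396 for Irf2. They join the exons of all annotated transcripts, and the 3776 bases of Irf7 are its whole stretch from start to end. The levels per kb, their order and the shares below depend on this choice, and other lengths were not tried. The sum over the 8 factors was 13530 and 12808 per kb in statin LPS, 55367 and 55939 in ctl LPS, 4810 and 5250 in statin, and 4878 and 4458 in Ctrl. At rest, Irf5 was the most abundant factor with and without the statin, with 53.4% and 50.4% of this sum in statin and 45.1% and 46.1% in Ctrl. Irf8, Irf3 and Irf2 came next in both resting groups, Irf4 was the least abundant, and Irf9, Irf7 and Irf1 lay between them. Not all neighbours in that order were distinct. In statin, the libraries of Irf3 and Irf2 and of Irf7 and Irf9 overlapped, and in Ctrl those of Irf2 and Irf9, Irf9 and Irf7, and Irf7 and Irf1.

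In the LPS groups no neighbours overlapped, and the order differed between them. In ctl LPS it ran Irf1, Irf7, Irf5, Irf8, Irf2, Irf9, Irf3, Irf4. Irf1 (34.9% and 34.6%) and Irf7 (34.2% and 34.0%) held most of the sum and differed little, at 19349 and 19344 per kb for Irf1 against 18917 and 19020 for Irf7. In statin LPS it ran Irf1, Irf5, Irf7, Irf9, Irf8, Irf2, Irf3, Irf4. Irf1 kept a like share (35.5% and 34.0%), Irf7 held 14.6% and 14.3%, and Irf5 held 27.7% and 28.8% in statin LPS, against 16.0% and 16.5% in ctl LPS.

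**Figure D5:**
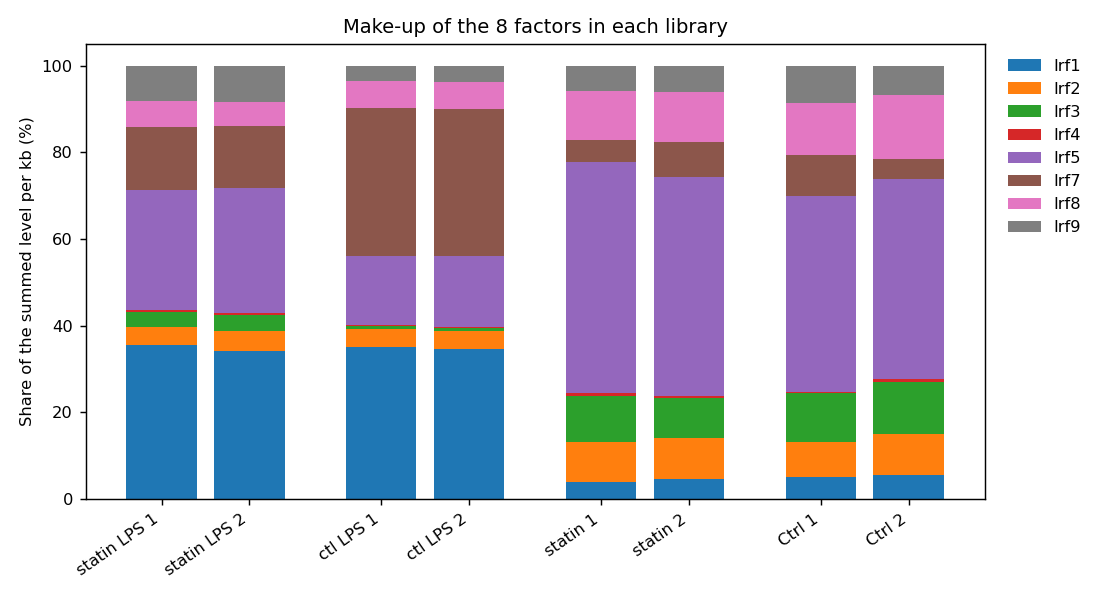
Share of each factor in the summed normalized count per kb of the 8 factors, for each library of statin LPS, ctl LPS, statin and Ctrl. Irf7 takes 14.6% and 14.3% in statin LPS and 34.2% and 34.0% in ctl LPS, and Irf5 takes 53.4% and 50.4% in statin and 45.1% and 46.1% in Ctrl.

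Ratios within a library do not change when all its values are multiplied by the same number, although quantile normalization can change them. They also depend on the exonic lengths used. The ratio per kb of Irf1, the activator, to Irf2, its antagonist, was 8.45 and 7.23 in statin LPS, against 8.41 and 8.36 in ctl LPS, where the pairs overlapped. At rest it was 0.407 and 0.495 in statin, against 0.602 and 0.590 in Ctrl, without overlap. The ratio of Irf7, the inducible partner, to Irf3, the constitutive one, was 4.41 and 3.97 in statin LPS, against 46.8 and 47.5 in ctl LPS. That ratio at rest was 0.484 and 0.873 in statin and 0.857 and 0.382 in Ctrl, which overlap. The ratio of Irf5 to Irf4, which compete for MyD88, was 54.7 and 59.5 in statin LPS, against 81.1 and 89.9 in ctl LPS. No test was run on these ratios.

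The pattern of each factor over the 8 libraries was compared with that of every other gene tested, by the root mean square difference of log2 values centred on their mean. Irf2 and Irf8 were the most alike pair within the family (0.153), followed by Irf2 and Irf5 (0.259), and Irf1 and Irf3 were the least alike (2.94). The nearest genes to Irf7 were Usp18 (0.231), a protease of the interferon-induced modifier ISG15, Amotl2 (0.334) and Ifi44l (0.375). Nearest to Irf1 were the interferon-inducible GTPase Irgm2 (0.179), Rnd1 (0.274) and Parp14 (0.290). Irf9 was nearest to Papd7 (0.120), the proteasome activator subunit Psme2 (0.171) and Kpna3 (0.196). Closer matches were found for Irf5, with Chmp4b (0.0371), Tmod3 (0.0412) and Rbms1 (0.0609), and for Irf3, with Ostc (0.0437), Zcchc17 (0.0453) and Ormdl2 (0.0481). Irf2 was nearest to Bst1 (0.0860), Tspo (0.0897) and the apoptotic protease Casp8 (0.0977), and Irf8 to Khnyn (0.102), Tpst1 (0.123) and Tmem229b (0.142). Irf4 was nearest to the B cell adaptor Blnk (0.124), Acot9 (0.131) and Ptprc (0.132), which encodes CD45. These distances are descriptions over 8 libraries.

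The genes around the factors were followed in lists by role, and each list is given by its counts. These read against the shares of all genes tested: 31.4% higher and 32.9% lower in statin LPS against ctl LPS, 30.4% and 25.7% in statin against Ctrl, 39.9% and 37.6% in ctl LPS against Ctrl, and 29.2% and 29.0% in statin LPS against statin. Targets of the IRF factors and of ISGF3 moved furthest: in statin LPS against ctl LPS, 29 of 30 fell, 0 rose, and the median log2 fold change was -3.02. Mx1, an antiviral GTPase, had 873 and 754 normalized counts in statin LPS, against 33300 and 33320 in ctl LPS (-5.36 ± 0.21 SE, adjusted p 3.07e-07). The CXCR3 ligands Cxcl9 and Cxcl11 fell as well, with log2 fold changes of -4.90 and -4.77. Ciita, the regulator of MHC class II genes, was the target that did not pass the test, at 5.22 and 6.64 in statin LPS against 15.1 and 11.3 in ctl LPS (adjusted p 0.0677). Ifnb1, named after its values were seen because it encodes interferon beta itself, had 857 and 619 in statin LPS, against 9401 and 9641 in ctl LPS (-3.71 ± 0.27 SE, adjusted p 7.05e-06). In ctl LPS against Ctrl, 29 of the 30 targets rose and Ciita fell, with a median of 8.15. In statin LPS against statin, 29 rose and 0 fell, with a median of 4.81. At rest, 2 rose and 9 fell with the statin, 19 did not pass the test and the median was -0.17. The 9 of 30 that fell were a share near the 25.7% of all genes. Ciita (-2.09), Oas1g (-1.11) and Psmb9 (-1.03) were the largest of these, and the tilt between replicates given above touches this list. Ciita had few counts at rest, with 7.16 and 9.40 in statin against 27.3 and 52.9 in Ctrl. Oas1g had 482 and 613 in statin, against 1632 and 841 in Ctrl.

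Partners of the factors behaved in a mixed way. Of 12 tested, 8 fell and 1 rose in statin LPS against ctl LPS, with a median log2 fold change of -0.73. Batf2, which pairs with Irf1 in mouse macrophages, had 807 and 732 normalized counts in statin LPS, against 10500 and 11080 in ctl LPS (-3.81 ± 0.18 SE, adjusted p 6.30e-07). Stat2, a subunit of ISGF3 beside Irf9, fell by 2.32 on the log2 scale. At rest, 9 of the 12 partners rose and 1 fell with the statin. Those that rose included the NF-κB subunit Rel (0.93), the ETS factor Etv6 (0.76) and the acetyltransferase Ep300 (0.67). In ctl LPS against Ctrl 12 of 12 rose, and in statin LPS against statin 10 of 12.

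Receptors, adaptors and kinases upstream of the factors were split in direction, and the 8 that rose under LPS and the 7 that rose at rest were a share near that of all genes (31.4% and 30.4%). Of 23 tested, 14 fell and 8 rose in statin LPS against ctl LPS (median -0.31), 7 rose and 2 fell in statin against Ctrl (median 0.13), and 17 rose and 5 fell in ctl LPS against Ctrl (median 0.95). In statin LPS against statin 14 rose and 5 fell. Of these, 3 RNA sensors had the largest changes with the statin under LPS, and other sensors of the list changed less (Tlr9 -1.48, Tlr7 -0.86). Tlr3 had 641 and 619 normalized counts in statin LPS, against 10100 and 10200 in ctl LPS (-4.01 ± 0.09 SE, adjusted p 3.75e-08), and the RNA helicases Ddx58 and Ifih1 fell too, with log2 fold changes of -2.60 and -2.54. Higher with the statin at rest were Ticam1 (1.16), which encodes the adaptor TRIF that leads to Irf3, the LPS co-receptor Cd14 (0.93) and the TBK1-binding adaptor Tank (0.71). Ticam1 (1.00) and Cd14 (0.93) were also called higher in statin LPS against ctl LPS, whereas Tank was called lower there (-0.89).

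Among inhibitors and corepressors, the largest rise stood against the direction of most factors. Irf2bp2 encodes a corepressor first known as a partner of Irf2. It had 2401 and 2338 normalized counts in statin LPS, against 328 and 346 in ctl LPS (2.81 ± 0.09 SE, adjusted p 1.43e-07), and 4482 and 5217 in statin, against 3726 and 4203 in Ctrl (0.29 ± 0.09 SE, adjusted p 0.0251). With LPS it fell in both settings, at log2 fold changes of -1.03 in statin-treated cells and -3.55 in cells without statin. Over the list, 9 of 14 fell and 5 rose in statin LPS against ctl LPS (median -0.60), with Usp18, also on the target list, at -3.12 and the ubiquitin ligase Trim21 at -2.53. At rest, 7 rose and 3 fell with the statin, including Tnfaip3 (1.27), which encodes the deubiquitinase A20, the cytokine-signalling inhibitor Socs1 (0.57) and Siva1 (-1.12). Socs1 had few counts there, with 39.4 and 38.5 in statin against 31.2 and 21.6 in Ctrl. In ctl LPS against Ctrl 7 rose and 6 fell, and in statin LPS against statin 8 rose and 2 fell. The 5 of 14 that rose under LPS were a share near the 31.4% of all genes.

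Of the 7 interferon receptors and their kinases, 5 fell and 1 rose in statin LPS against ctl LPS (median -0.46). Jak2 had 17810 and 18270 normalized counts in statin LPS, against 59570 and 59300 in ctl LPS (-1.72 ± 0.07 SE, adjusted p 3.13e-07). Tyk2 had 5916 and 5589 in statin LPS, against 12980 and 13000 in ctl LPS (adjusted p 1.72e-05). Ifngr2, a chain of the interferon gamma receptor, rose by 0.72. At rest, 4 rose and 1 fell with the statin, with Jak2 at 0.48, Tyk2 at 0.34 and Ifnar2, a chain of the type I interferon receptor, at -0.58, where 30.4% of all genes rose and 25.7% fell. A list of 7 is too short to set against those shares. In ctl LPS against Ctrl 5 rose and 2 fell, and in statin LPS against statin 5 rose and 1 fell. Several of these genes are themselves induced by interferon, and all lists were chosen with earlier results of these libraries known, so their directions are not independent evidence.

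Some exons of the factors overlap other genes, and the strand setting of the authors' counting was not given in the sources used here. Irf5 (chr6:29526625-29541871, plus strand) shares 14.2% of its exonic length with Tnpo3 on the opposite strand. Tnpo3 averaged 6424 normalized counts in statin LPS and 6216 in ctl LPS (log2 fold change 0.048, adjusted p 0.582), so it did not show the decrease of Irf5. Irf9 (chr14:55603571-55610030, plus strand) shares 2.28% with Rnf31 on the same strand, and Rnf31 fell by 1.36 on the log2 scale in the same comparison. For Irf1 (chr11:53770014-53778374), Irf3 (chr7:44997648-45002848) and Irf7 (chr7:141262706-141266481, minus strand) the shared part was 3.40%, 2.56% and 1.19%, on opposite strands. Irf2 (chr8:46739732-46847458), Irf4 (chr13:30749226-30766976) and Irf8 (chr8:120736358-120756694) share no exonic bases with another gene in that annotation.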

How the data were processed

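RNA was depleted of ribosomal RNA and made into stranded libraries. The authors deposited normalized counts, a signal made by dividing each gene's read count by a library size factor. Per the labels, the submitters' processing notes name STAR 2.5.3, HTSeq 0.9.1, DESeq2 1.18.1 and build mm10. The strand setting was not given in the sources used here. Reads were recovered whole for 100% of values (within 0.01 of a whole number). The table has 12 further columns of per-sample values that were not used, and tables of the authors' own fold changes and p-values were not used. Of the symbols, 27 had been turned into dates.

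Genes with a mean of at least 10 normalized counts were fitted with limma 3.58.1 (R 4.3.3) on log2(normalized count + 1), with 4 group means over 8 libraries (4 residual degrees of freedom), trended empirical Bayes and two-sided tests, adjusted by Benjamini-Hochberg at 0.05. The script was tested on simulated data. edgeR 4.0.16 (TMM) and DESeq2 1.42.0 were run on the recovered reads, and other alternatives were pseudocounts of 0.5 and 5, no filter, a mean of at least 50, equal totals, quantile normalization, each contrast's own libraries, a replicate block and libraries left out.

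The 8 factors, and of each gene list the 3 largest called changes with the statin under LPS and at rest, were named, except for some list genes that are not reported here. For likeness the 3 nearest genes were named. Members and lists were chosen with earlier results of these data known. Ribosomal RNA depletion is common to all libraries. The change to albumin medium is named for the LPS groups, so it cannot be told apart from LPS. The intervals cover only the spread between these libraries.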

Additional observations from a re-analysis of the deposited data

Results flagged for a closer look

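For each of the 8 factors, the statin effect differed between LPS-stimulated and resting cells by the interaction term (limma, log2 scale, statin LPS minus ctl LPS less statin minus Ctrl). The difference was -1.87 for Irf1, -2.18 for Irf2, 0.31 for Irf3, -0.97 for Irf4, -1.57 for Irf5, -3.37 for Irf7, -2.04 for Irf8 and -0.68 for Irf9. Those of Irf3, Irf4 and Irf9 missed the threshold in some alternative settings, and those of the other 5 factors passed it in all 18.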

How the results depend on the processing

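With 2 libraries a group, small differences at rest were the least certain. Of 152 settings over the 8 factors, 126 kept direction and call for statin against Ctrl, 141 for statin LPS against ctl LPS, 152 for ctl LPS against Ctrl and 147 for statin LPS against statin, and 133 of 144 for the interaction. For statin against Ctrl, Irf7 turned to -0.063 with equal totals, -0.042 with edgeR, -0.028 with DESeq2 and -0.34 when 2 libraries (ctl LPS replicate 1, statin replicate 2) were left out at once, and ran from -0.53 to 0.63 with single libraries left out. Irf9 ran from -0.45 to 0.0049 (without Ctrl replicate 1). A group left with 1 library is assumed to vary like the other groups. For statin LPS against statin, Irf2 turned to -0.047 with equal totals.

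Counts of factors called for statin against Ctrl became 1 higher with equal totals, quantile normalization, own libraries, the 2 libraries left out, edgeR and DESeq2, and 1 to 3 with single libraries left out. Called lower there were 3 with equal totals, 1 with quantile normalization, edgeR or the 2 libraries left out, and 0 to 1 with single libraries left out. For statin LPS against ctl LPS, 0 were higher with quantile normalization, DESeq2 or the 2 libraries left out, and 0 to 1 with single libraries left out. For the interaction, 0 were higher with the 2 libraries left out, and 0 to 1 with single ones. For statin LPS against statin, 1 factor was called lower with equal totals, and without the 2 libraries 4448 genes were called, against 6784. The cause was not tested.

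Scaling set the balance of calls over all genes. With equal totals the median log2 fold change of all genes was 0.33 for statin LPS against ctl LPS, -0.10 for statin against Ctrl, -0.79 for ctl LPS against Ctrl, -0.38 for statin LPS against statin and 0.42 for the interaction. The share of calls that were higher was then 74.9%, 40.4%, 20.9%, 18.9% and 75.8%, against 48.9%, 54.2%, 51.5%, 50.1% and 45.9% with the deposited scaling.

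Replicate numbers were not shown to pair the libraries: deviations of same-numbered libraries correlated between -0.072 and 0.10 over 10574 genes. With a replicate block, 7429 genes were called for statin LPS against ctl LPS and 6447 for statin against Ctrl, and no call of a factor changed.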
